A study of Homo sapiens with 2 samples.

Results

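The genes that write, read and remove DNA methylation were compared between A2780 cells labelled shControl and A2780 cells labelled shJAM3, with 1 RNA sequencing library in each group. A2780 is an established human ovarian cancer cell line. The set held 10 genes chosen by symbol, out of 57169 gene symbols in the deposited table: the methyltransferases DNMT1, DNMT3A and DNMT3B, the cofactor UHRF1, the dioxygenases TET1, TET2 and TET3, the methyl-CpG binding protein gene MBD2, and the DNA glycosylases MBD4 and TDG. The control cells carry the genotype label WT and are called empty-vector cells in the design text, and the other cells carry a stable knockdown of JAM3, an adhesion molecule gene. The titles use the prefix sh while the design text speaks of siRNA, and neither a clone number nor a construct sequence is given in the sources used here.

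Methylation of cytosine in CpG pairs is copied to the new strand after replication by DNMT1, which UHRF1 brings to hemimethylated sites, and is laid down at new sites by DNMT3A and DNMT3B. TET enzymes oxidise methylcytosine step by step, and TDG cuts out the oxidised products so that base excision repair can put back an unmodified cytosine. MBD4 removes the thymine left when methylcytosine is deaminated, and MBD2 recruits a repressive complex to methylated DNA. In ovarian and other carcinomas, methylation of promoter CpG islands is a known route to gene silencing, and the series title names epigenetic silencing of JAM3. The files hold transcript levels, and DNA methylation itself was not measured in them.

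The libraries held 15570262 (shControl) and 16455079 (shJAM3) fragments assigned to genes, of which the 10 genes took 10560 and 10483. With a single library per group there is no replicate check. All differences given set 1 library against the other, and no test of the conditions could be made. Levels are given as FPKM, the number of fragments divided by gene length in kilobases and by library size. A ratio is the FPKM in shJAM3 divided by that in shControl, and its bracketed 95% interval covers counting error only. "Beyond counting error" means that this interval excludes 1. A log2 ratio is taken on the log2(FPKM + 1) scale, which understates differences of low genes, and a gene was called measured at a mean of at least 1 FPKM. JAM3 itself was near the detection limit, with 18 and 14 fragments (0.215 FPKM in shControl, 0.154 in shJAM3), a ratio of 0.716 (0.330 to 1.52), so a difference in the targeted gene was not detectable at this depth. On the opposite strand NCAPD3 covers 8.53% of the JAM3 exon bases (27.5 FPKM in shControl, 36.0 in shJAM3), so even these fragments cannot all be placed with certainty. Keratin genes KRT8 and KRT18 were at 138.6 and 144.8 FPKM in shControl, while EPCAM, CDH1, KRT19 and PAX8 had means below 1 FPKM. The leukocyte gene PTPRC had no fragment in either library, which allows for up to 3 fragments. The log2 ratio also followed transcript GC content, from a median of 0.23 in the tenth of measured protein-coding genes with the lowest GC to -0.44 in the tenth with the highest.

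Of the 10 genes 8 were measured, and TET1 and TET2 fell below that level. Among the 8, 3 were higher in shJAM3 beyond counting error (DNMT3B, MBD4 and TDG) and 5 were lower (DNMT1, DNMT3A, UHRF1, TET3 and MBD2). That split reads against a background in which 33% of 12214 measured genes were higher beyond counting error and 33.6% were lower. None of the 8 reached a log2 ratio of 1 in either direction, a size that 3.41% of measured genes and 1.8% of measured protein-coding genes reached. Without the added 1 FPKM, DNMT3A was the single member past 2-fold, at a ratio of 0.384, and 4.22% of measured genes had a ratio of 0.5 or less. The median log2 ratio of the 8 was -0.16, beside 0.0046 for all measured genes. The genes lay on both sides of 1, with DNMT3A lowest and TDG highest.

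**Figure D1:**
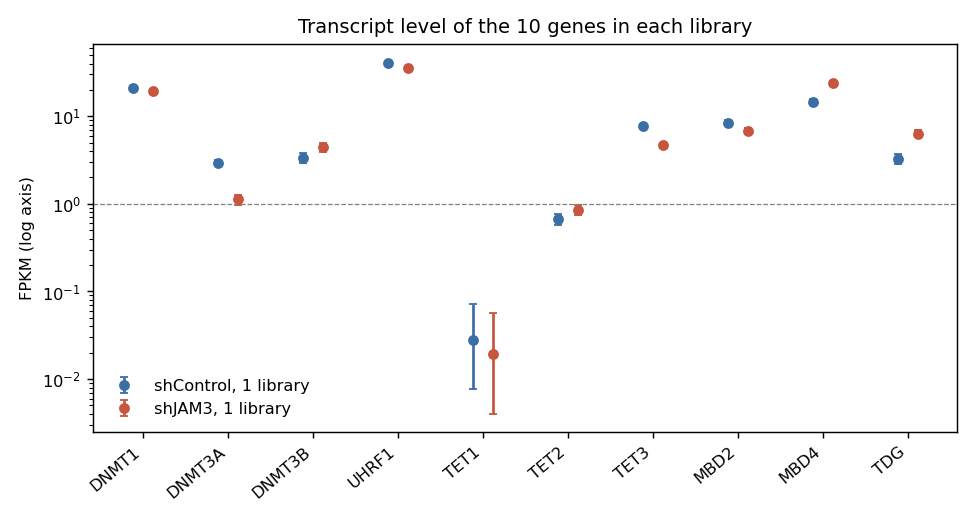
FPKM of the 10 genes (log axis) in the shControl and shJAM3 libraries, 1 point per library, with bars for the 95% Poisson interval of the fragment number and a dashed line at 1 FPKM. UHRF1 is highest in both libraries and TET1 lowest, and the widest gaps between the libraries among measured genes are those of DNMT3A and TDG.

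The maintenance genes UHRF1 and DNMT1 had the ratios closest to 1 among the 8 measured genes. UHRF1 (chromosome 19, 4903080 to 4962154, plus strand, GRCh38) stood at 40.6 FPKM in shControl against 35.7 in shJAM3, from 3211 and 3062 fragments. Its ratio was 0.878 (0.836 to 0.923). UHRF1 was the highest of the 10 genes in both libraries, and 93.9% of protein-coding genes in the table had a lower mean level. Its reads can be shared with a copy: 25.2% of the 50-base stretches in its longest annotated transcript also occur in the processed pseudogene AC112777.1, which was listed at 16.0 and 14.5 FPKM. DNMT1 (chromosome 19, 10133345 to 10231286, minus strand) stood at 21.3 FPKM in shControl against 19.2 in shJAM3, from 3202 and 3135 fragments, a ratio of 0.902 (0.858 to 0.948). After centring on GC content its ratio was 0.967 (0.921 to 1.02), an interval that includes 1. UHRF1 relative to DNMT1 stood at 1.91 in shControl and 1.86 in shJAM3. That balance changed by a factor of 0.974 (0.908 to 1.05), within counting error, and the library scaling cancels in this factor.

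The 2 de novo methyltransferases lay on opposite sides. DNMT3A (chromosome 2, 25227855 to 25342590, minus strand) stood at 2.92 FPKM in shControl against 1.12 in shJAM3, from 539 and 225 fragments. Its ratio of 0.384 (0.328 to 0.450) was the 78th lowest of 10499 measured protein-coding genes, and its log2 ratio was -0.88. DNMT3B (chromosome 20, 32762385 to 32809356, plus strand) stood at 3.33 FPKM in shControl against 4.42 in shJAM3, from 237 and 341 fragments, a ratio of 1.33 (1.12 to 1.57). The genes have almost the same transcript GC content, 53.7% for DNMT3A and 53.9% for DNMT3B. Centring on GC left DNMT3A at 0.400 (0.341 to 0.468) and DNMT3B at 1.38 (1.17 to 1.64).

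The balance of the pair differed between the libraries. DNMT3B supplied 53.3% (49.4 to 57.1) of the summed DNMT3A and DNMT3B level in shControl and 79.7% (76.8 to 82.4) in shJAM3, while the sum went from 6.25 to 5.54 FPKM. DNMT3B over DNMT3A was 1.14 (0.976 to 1.33) in shControl and 3.93 (3.32 to 4.68) in shJAM3, a 3.44-fold change (2.73 to 4.35). This factor does not depend on library scaling. The genes fall in the same GC bin, so GC centring cannot alter it. DNMT1 over DNMT3A went from 7.29 to 17.1, and DNMT1 over DNMT3B from 6.39 to 4.35. DNMT1 remained 77.3% and 77.6% of the summed level of the 3 methyltransferases. In all, 10 pairs of the 10 genes were compared in this way, and the intervals are not adjusted for that number. A level per kilobase here rests on the union of annotated exons, 12020 bases for DNMT3A against 9501 in its longest transcript, and 4630 against 4336 for DNMT3B. The balance within a library depends on those lengths, while its change between libraries does not.

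**Figure D2:**
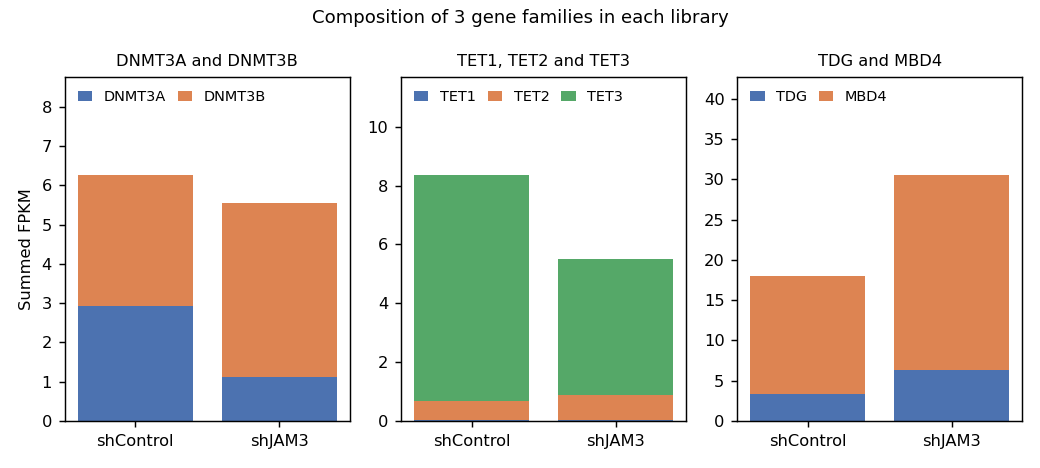
Summed FPKM of DNMT3A and DNMT3B, of TET1, TET2 and TET3, and of TDG and MBD4 in the shControl and shJAM3 libraries, with each gene as a coloured part of the bar. DNMT3A takes 46.7% of its bar in shControl and 20.3% in shJAM3, the TET bar is lower in shJAM3 mainly in its TET3 part, and the bar of TDG and MBD4 is higher.

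Promoter windows of DNMT3A, DNMT3B, TET3 and TDG are shown for their CpG content, since CpG is the substrate of these enzymes. They come from RefSeq (GRCh38.p14), whose table held a window for all 10 genes. The stretches printed lie upstream of the RefSeq start and outside every annotated exon of the gene, and capitals mark each CpG. DNMT3A is chr2:25342591-25342733 (minus strand), DNMT3B is chr20:32779602-32779851 (plus), TET3 is chr2:73984660-73984909 (plus) and TDG is chr12:103965622-103965803 (plus). The DNMT3B window belongs to an internal start, 17467 bases downstream of the outermost annotated one and equal to the start of transcript DNMT3B-201. The RefSeq starts of DNMT1 and UHRF1 are internal too, 36333 and 6421 bases downstream of the outermost annotated ones. Those of TET3 and TET1 lie 1494 and 319 bases upstream of any annotated start of these genes.
DNMT3A: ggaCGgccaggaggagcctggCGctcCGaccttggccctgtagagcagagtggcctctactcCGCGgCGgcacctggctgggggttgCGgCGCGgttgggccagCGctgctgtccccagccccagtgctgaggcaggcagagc
DNMT3B: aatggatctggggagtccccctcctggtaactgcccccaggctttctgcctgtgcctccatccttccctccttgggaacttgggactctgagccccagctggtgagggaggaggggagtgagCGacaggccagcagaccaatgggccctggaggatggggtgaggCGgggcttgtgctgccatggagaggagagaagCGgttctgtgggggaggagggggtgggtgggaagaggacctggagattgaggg
TET3: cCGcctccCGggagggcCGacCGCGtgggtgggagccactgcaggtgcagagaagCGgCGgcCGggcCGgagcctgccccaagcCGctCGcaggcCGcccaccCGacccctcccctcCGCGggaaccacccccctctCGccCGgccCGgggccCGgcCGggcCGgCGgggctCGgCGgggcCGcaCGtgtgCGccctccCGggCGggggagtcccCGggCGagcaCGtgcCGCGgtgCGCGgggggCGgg
TDG: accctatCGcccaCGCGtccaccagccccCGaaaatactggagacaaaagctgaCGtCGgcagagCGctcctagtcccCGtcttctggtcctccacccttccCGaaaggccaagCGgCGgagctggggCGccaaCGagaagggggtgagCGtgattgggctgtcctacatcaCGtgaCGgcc
The printed stretches held 10 CpG in 143 bases for DNMT3A, 3 in 250 for DNMT3B, 37 in 250 for TET3 and 16 in 182 for TDG. Over the whole 300-base windows, CpG numbers ran from 3 in DNMT3B and 10 in TET1 to 45 in TET3, beside a median of 22 over 14893 windows of protein-coding genes. Thus 95.3% of those windows held fewer CpG than that of TET3, and 9.61% held fewer than the internal DNMT3B window. The windows of DNMT3A and TDG, which lay at opposite ends of the ratios, held 26 and 22. Of 5 motifs searched on both strands, the E-box CACGTG occurred in 3 of the 10 windows (TET2, TET3 and TDG) and in 8.94% of protein-coding windows. The E2F-type motif TTTCCCGC occurred in UHRF1 alone and in 2.18% of protein-coding windows. TTTGGCGC, the NRF1 motif and CCGGAAG were in none of the 10 windows and in 0.913%, 1.74% and 14.4% of protein-coding windows. CACGTG itself contains a CpG, and a match is a description of these letters only.

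TET3 was the main TET transcript in both libraries and was lower in shJAM3. TET3 (chromosome 2, 73986404 to 74108176, plus strand) stood at 7.66 FPKM in shControl against 4.64 in shJAM3, from 1443 and 950 fragments. Its ratio of 0.606 (0.558 to 0.659) was the 827th lowest of 10499 measured protein-coding genes, and 0.628 (0.578 to 0.682) after GC centring. TET2 (chromosome 4, 105145875 to 105279816, plus strand), below the level for a measured gene, stood at 0.664 FPKM in shControl against 0.848 in shJAM3, from 168 and 233 fragments. Its ratio was 1.28 (1.04 to 1.57), and 1.14 (0.929 to 1.40) after GC centring, which includes 1. TET1 (chromosome 10, 68560656 to 68694482, plus strand) had 4 fragments in shControl and 3 in shJAM3, which is 0.0280 and 0.0194 FPKM. At a ratio of 0.691 (0.101 to 4.08) a difference in TET1 was not detectable at this depth.

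TET3 made up 91.7% of the summed TET level in shControl and 84.3% in shJAM3, and the sum went from 8.35 to 5.51 FPKM. TET2 over TET3 went from 0.0867 to 0.183, a 2.11-fold change (1.69 to 2.63), or 1.81-fold (1.45 to 2.26) after GC centring. The TET transcripts differ in GC content, with 41.0% for TET1, 43.0% for TET2 and 52.3% for TET3. TET2 levels also depend on its long annotated exon union of 16474 bases, against 10166 in its longest transcript.

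Both DNA glycosylase genes were higher in shJAM3. TDG (chromosome 12, 103965804 to 103988874, plus strand), which removes oxidised methylcytosine, stood at 3.28 FPKM in shControl against 6.33 in shJAM3, from 247 and 518 fragments. Its ratio of 1.93 (1.66 to 2.26) was the 203rd highest of 10499 measured protein-coding genes, with a log2 ratio of 0.78. MBD4 (chromosome 3, 129430944 to 129440179, minus strand) stood at 14.7 FPKM in shControl against 24.2 in shJAM3, from 757 and 1352 fragments. Its ratio was 1.64 (1.50 to 1.80), the 570th highest. After GC centring the ratios were 1.65 (1.41 to 1.92) for TDG and 1.46 (1.34 to 1.60) for MBD4, and these transcripts are among the GC-poor ones of the set, at 39.5% and 42.8%. Ratios of at least 1.5 were seen in 11.9% of measured genes. TDG over MBD4 was 0.223 and 0.262 and changed 1.17-fold (0.982 to 1.41), within counting error.

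TDG and TET3, which acts before it in demethylation, lay on opposite sides. TDG over TET3 was 0.428 (0.373 to 0.491) in shControl and 1.36 (1.22 to 1.52) in shJAM3, a 3.18-fold change (2.67 to 3.80), or 2.62-fold (2.20 to 3.12) after GC centring. Some fragments of both glycosylase genes cannot be placed with certainty. In the longest TDG transcript 10.9% of 50-base stretches also occur in the processed pseudogene TDGP1, listed at 0.106 and 0.195 FPKM. MBD4 shares 144 bases, 4.29% of its exon bases, with IFT122 on the opposite strand, which was at 3.00 and 4.84 FPKM. The library protocol as given marks no strand.

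MBD2 (chromosome 18, 54151601 to 54224788, minus strand) stood at 8.43 FPKM in shControl against 6.85 in shJAM3, from 752 and 664 fragments. Its ratio was 0.813 (0.732 to 0.904), and it moved further from 1 after GC centring, to 0.735 (0.661 to 0.817). MBD4 over MBD2, which share a methyl-CpG binding domain, went from 1.74 to 3.53, a 2.02-fold change (1.76 to 2.33).

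**Figure D3:**
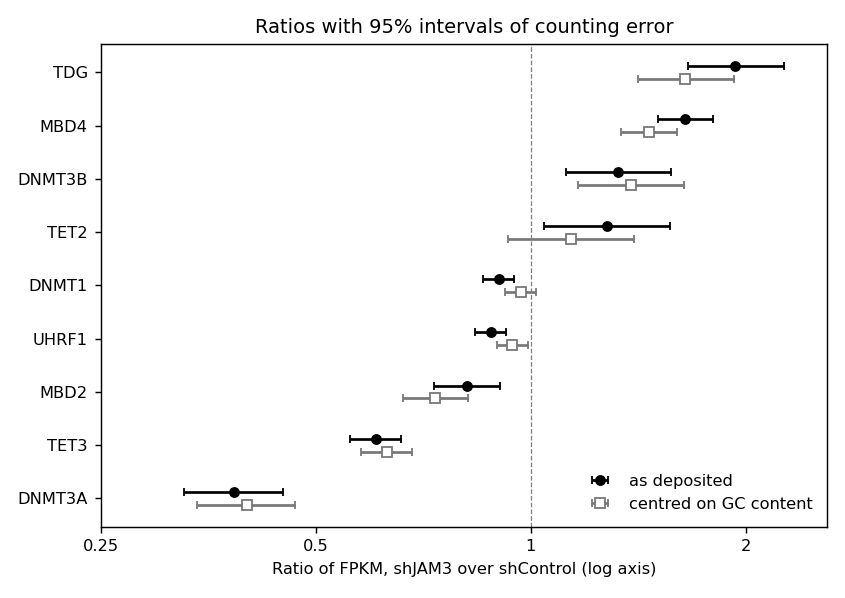
Ratio of FPKM in shJAM3 to shControl (log axis) for the 8 measured genes and TET2, as deposited (filled) and centred on GC content (open), with bars for the 95% interval of counting error. DNMT3A at 0.384 and TET3 at 0.606 lie furthest below 1, TDG at 1.93 and MBD4 at 1.64 furthest above it, and the centred intervals of DNMT1 and TET2 include 1.

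The order of levels shifted in the middle of the set. In shControl it ran UHRF1, DNMT1, MBD4, MBD2, TET3, DNMT3B, TDG, DNMT3A, TET2, TET1. The neighbours DNMT3B and TDG, and TDG and DNMT3A, did not differ beyond counting error there. In shJAM3 the order was UHRF1, MBD4, DNMT1, MBD2, TDG, TET3, DNMT3B, DNMT3A, TET2, TET1. There MBD2 and TDG, and TET3 and DNMT3B, did not differ beyond counting error. MBD4 stood 1.26-fold (1.18 to 1.34) above DNMT1 in shJAM3, while DNMT1 stood 1.45-fold (1.34 to 1.57) above MBD4 in shControl.

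**Figure D4:**
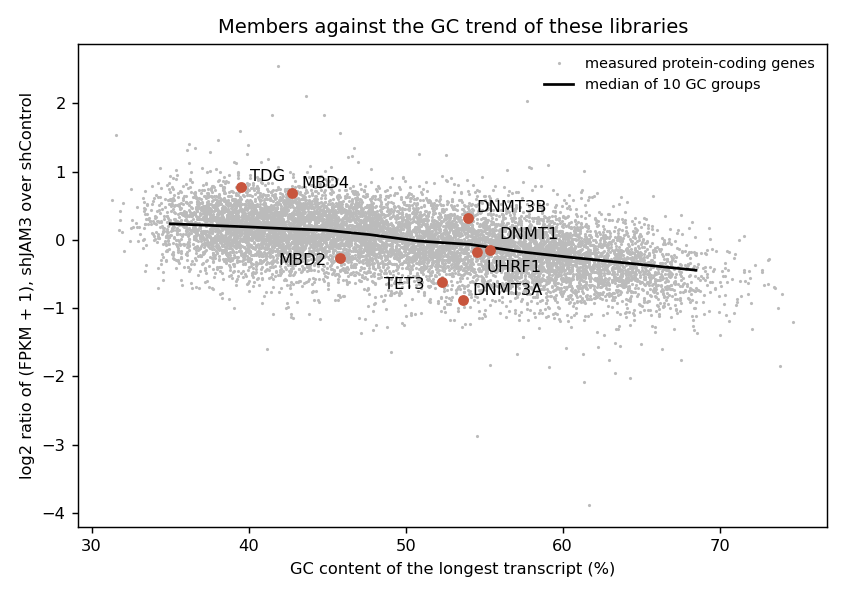
Log2 ratio of (FPKM + 1) against the GC content of the longest transcript for measured protein-coding genes (grey) and the 8 measured members (red), with a line through the medians of 10 GC groups. DNMT1 and UHRF1 lie near the line, MBD2, TET3 and DNMT3A below it, and DNMT3B, MBD4 and TDG above it.

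Beside the counts of each list below stand the shares over all 12214 measured genes, 33% higher and 33.6% lower beyond counting error. Partners of maintenance methylation held both higher and lower genes. Of 14 measured, 5 were higher and 6 lower beyond counting error, none with a log2 ratio of 1 or more in either direction, and the median log2 ratio was -0.081. The median was 0.11 after GC centring, of the opposite sign, and the mean was 0.029. UHRF2, the paralogue of UHRF1, stood at 9.81 FPKM in shControl against 4.87 in shJAM3, with a ratio of 0.497 (0.455 to 0.541), or 0.436 after GC centring. The remodeller gene HELLS was at 3.50 against 6.27 FPKM, with a ratio of 1.79 (1.62 to 1.99), or 1.47 after GC centring. PCNA, the replication clamp that DNMT1 binds, was at 71.0 against 113.8 FPKM, with a ratio of 1.60 (1.51 to 1.71), or 1.45 after GC centring. The other higher genes, named after their values were seen, were CDCA7, CDCA7L and SMCHD1. EHMT2, a histone H3 lysine methyltransferase, had a ratio of 0.690, and 0.873 after GC centring.

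Genes in a mixed list of partners and guides of de novo methylation were lower or within counting error. The list is not limited to genes that direct methylation to new sites. Of 7 measured, 5 were lower beyond counting error (CXXC1, SETD2, NSD1, KDM2B and ZNF445, the last 3 named after their values were seen), with a median of -0.17. CXXC1, which binds unmethylated CpG, was at 18.6 against 10.6 FPKM, with a ratio of 0.566 (0.517 to 0.620), or 0.673 after GC centring. SETD2, whose histone mark recruits DNMT3 proteins to gene bodies, had a ratio of 0.832 (0.782 to 0.884). NSD2 at 0.985 and EZH2 at 1.06 had intervals that include 1. After GC centring 5 were again lower, with NSD2 at 0.891 (0.849 to 0.934) in place of KDM2B at 1.02 (0.930 to 1.12). DNMT3L, a catalytically inactive relative that stimulates DNMT3A and was also named after its value was seen, was at 0.770 and 0.452 FPKM and so not measured.

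Regulators and cofactor enzymes of the TET proteins went both ways. Of 18 measured, 7 were higher and 6 lower beyond counting error, with a median of -0.024, or 0.011 after GC centring. After GC centring 5 were higher and 7 lower. IDH1, which makes the TET cosubstrate 2-oxoglutarate, had a ratio of 1.33, or 1.18 after GC centring. Its mitochondrial counterpart IDH2 had a ratio of 0.809, or 0.915 (0.836 to 1.001) after GC centring. CUL4A, the scaffold of a ubiquitin ligase, was at 83.5 against 126.2 FPKM, with a ratio of 1.51, or 1.30 after GC centring. It shares 5.55% of its exon bases with PCID2 on the opposite strand. GADD45A, a stress-induced protein linked to active demethylation, was at 21.2 against 11.0 FPKM, with a ratio of 0.518 (0.455 to 0.588).

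Of 15 measured genes of base excision repair, 9 were higher and 3 lower beyond counting error, with a median of 0.18 (0.19 after GC centring). The list holds steps that follow TDG and MBD4, and also other DNA glycosylases, among them all 3 lower measured genes. APEX1, the endonuclease that cuts the abasic site, stood at 53.4 FPKM in shControl against 92.1 in shJAM3, with a ratio of 1.72 (1.62 to 1.84). NEIL2, a glycosylase for oxidised bases, had a ratio of 1.52 (1.31 to 1.77). The lower measured genes were NTHL1 at 0.709, MPG at 0.749 and MUTYH, which was named after its value was seen. After GC centring 10 of the measured genes were higher and 0 lower, with NTHL1 at 0.960 and MPG at 1.10. Both are GC-rich, and MPG shares 27.3% of its exon bases with NPRL3 and NTHL1 shares 16.5% with TSC2. NEIL1, also in the list, was not measured, at 0.948 FPKM in shControl against 0.398 in shJAM3, from 101 and 46 fragments. Its ratio was 0.419, or 0.531 after GC centring, lower beyond counting error both ways. NEIL1 was named after its value was seen, and it shares 26.4% of its exon bases with MAN2C1.

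Other methyl-CpG readers were mostly on the lower side, as MBD2 was. Of 10 measured, 1 was higher and 5 lower beyond counting error, with a median of -0.19. BAZ2A, a silencing factor of ribosomal DNA, was at 41.5 against 22.7 FPKM, with a ratio of 0.546 (0.525 to 0.568), and RBMS2 on the opposite strand shares 5.50% of its exon bases. ZBTB4, a zinc finger reader, had a ratio of 0.628 (0.597 to 0.660), or 0.710 after GC centring. The related ZBTB33 (Kaiso) was the higher one at 1.42 (1.29 to 1.56), or 1.16 after GC centring. After GC centring 3 were higher and 6 lower. Of 12 genes of the NuRD complex, to which MBD2 belongs, 4 were higher and 5 lower, with a median of -0.024. The median was 0.074 after GC centring, of the opposite sign. The histone-binding subunit RBBP7 and the deacetylase HDAC2 had ratios of 1.52 and 1.37, or 1.31 and 1.13 after GC centring. GATAD2B and the remodeller CHD3 had ratios of 0.676 and 0.722, or 0.641 and 0.816 after GC centring.

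The methionine cycle supplies S-adenosylmethionine, the methyl donor of every DNMT. Of 14 measured genes 8 were higher and 5 lower beyond counting error, with a median of 0.19, or 0.038 after GC centring, when 6 were higher and 3 lower. MAT2A, which makes S-adenosylmethionine, stood at 31.7 FPKM in shControl against 58.6 in shJAM3, with a ratio of 1.85 (1.75 to 1.95), and 1.67 after GC centring. MAT2A shares 12.4% of its exon bases with GGCX on the opposite strand. CBS, which draws homocysteine out of the cycle, had a ratio of 0.564 (0.498 to 0.638), or 0.665 after GC centring.

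**Figure D5:**
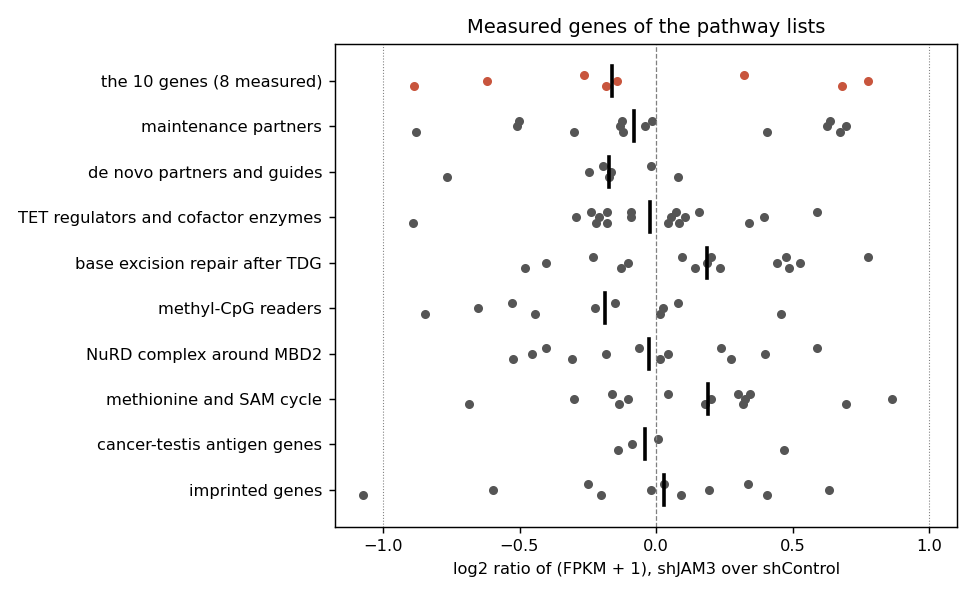
Log2 ratio of (FPKM + 1), shJAM3 over shControl, for each measured gene of 9 lists and for the 8 measured members (red), with a bar at each median and dotted lines at -1 and 1. The members span -0.88 to 0.78, and a single imprinted gene, H19, lies outside the dotted lines.

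Genes whose promoters are commonly methylated in somatic cells were for the most part not detected in either library. Among all 58735 listed genes of every type, 21954 had a fragment in shControl and 22401 in shJAM3. These include noncoding genes and pseudogenes, while the genes listed here are protein-coding. Among protein-coding genes, 24.5% had a mean level below that of BRDT, which had 1 fragment in shControl and 0 in shJAM3. At most that share of protein-coding genes thus had no fragment in either library. Of 21 germline genes, 12 had no fragment in either library and 1 was measured. That gene, HORMAD1, a meiotic chromosome protein, was at 3.49 against 4.94 FPKM, with a ratio of 1.41 (1.13 to 1.78), or 1.15 after GC centring, when its interval includes 1. MOV10L1 and TEX14 were at or below 0.201 FPKM. Of 24 cancer-testis antigen genes 18 had no fragment in either library, and 4 were measured, with a median of -0.039 (0.0064 after GC centring) and a mean of 0.063. MAGEA1 was at 18.7 against 26.3 FPKM, with a ratio of 1.41 (1.25 to 1.58), PRAME had a ratio of 0.904 (0.844 to 0.968), or 0.941 (0.879 to 1.01) after GC centring, when none of the 4 was lower, and MAGEA6 at 1.01 and MAGEA3 at 0.934 had intervals that include 1. MAGEA3 and MAGEA6 are near-identical copies, so the values of both are uncertain.

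Imprinted genes, which are expressed from 1 parental allele under control of methylation, showed no common direction. Of 25 genes 11 were measured, 3 higher and 4 lower beyond counting error, with a median of 0.030 and a mean of -0.041. After GC centring 5 were higher and 4 lower, with a median of -0.15. H19 was at 11.7 and 5.03 FPKM, a log2 ratio of -1.07, and its log2 ratio was -0.69 after GC centring. CDKN1C, a growth inhibitor, was at 92.9 against 61.1 FPKM, with a ratio of 0.657, or 0.890 after GC centring. MEST had a ratio of 1.66 (1.46 to 1.88), with other annotated genes on its exons, and PEG10 a ratio of 1.35 (1.25 to 1.46). GNAS and PHLDA2 were high in both libraries, with ratios of 1.14 and 0.986, or 1.35 and 1.33 after GC centring.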

How the data were processed

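The authors deposited 1 table of FPKM for 58735 genes. Tools listed without a role in the submitters' processing notes are STAR-Fusion, STAR, GATK 4.1.1.0, edgeR 3.22.5, DESeq2 1.20.0, featureCounts 1.5.0-p3, HISAT2 2.0.5 and fastp. Every deposited gene identifier, coordinate and length matched GENCODE 29 (GRCh38). The product of deposited FPKM and gene length came in whole steps in each library (100% of values, tolerance 0.001), which gave the fragment numbers. The implied library sizes were 0.987 and 1.01 times the totals, so the values carry an added scaling.

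Of rows with the same symbol the highest was kept, leaving out 1566. Intervals are exact conditional binomial (SciPy 1.17.1). They were tried on simulated Poisson counts, which vary by counting error alone, so that trial cannot judge variation between real libraries. PCR copies make the intervals too narrow. GC centring subtracted the median of 20 bins of longest-transcript GC over measured protein-coding genes. The 16 lists hold 213 distinct genes. Members and lists were chosen with earlier results of these data known. Named were all members, JAM3, and in each list the genes past 2-fold and the 2 highest and 2 lowest measured ratios, plus the 3 highest levels in lists of silenced genes. A few genes so chosen are left unreported. With 2 libraries each gene has 1 ratio, so no genes were named for a similar pattern. Tried were other pseudocounts, scalings, filters, and centring on GC or length.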

Additional observations from a re-analysis of the deposited data

How the results depend on the processing

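No member changed direction beyond counting error under any alternative run. Of 70 comparisons over single members 51 stayed within the counting interval of the log2(FPKM + 1) ratio. The other 19 lay outside it, all of them with GC centring or a smaller or no pseudocount. A smaller or no pseudocount changes the scale itself, so those values are not thereby beyond counting error. The number of members at least 2-fold apart was 0, and it was 1 (DNMT3A) with a pseudocount of 0.1 FPKM, with none, and with none and GC centring. The latter settings and those of the pairs were chosen after seeing the data. At a mean of at least 5 FPKM 1 member was higher beyond counting error, MBD4, since fewer genes pass that filter. The members' median log2 ratio was -0.077 with GC centring, -0.067 with GC centring and no pseudocount, and -0.077 with no filter on low values. The log2 ratio of JAM3 was -0.31 with a pseudocount of 0.1 FPKM, -0.48 with none, and -0.56 with none and GC centring. The change of TDG over TET3 was 2.62 with GC centring. Of 192 counts over the lists 170 stayed within 1.5 times. No paired analysis was possible because each group has 1 library. Depth limits TET1 and JAM3, with at most 18 fragments per library.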

Other observations

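Enzymes related to the DNA methyltransferases or linked to cytosine change were described beyond the comparisons above. Of 7 measured genes for RNA methyltransferases, including the tRNA enzymes of the NSUN family and the N6-adenosine writer METTL3, 3 were higher and 1 lower beyond counting error, with a median log2 ratio of 0.20. After GC centring 1 was higher and 3 were lower, with a median of -0.029. METTL3 stood at 3.52 FPKM in shControl against 4.91 in shJAM3, with a ratio of 1.39 (1.21 to 1.61), and shares 6.58% of its exon bases with TOX4. NSUN5, which modifies ribosomal RNA, was at 33.2 against 24.2 FPKM, with a ratio of 0.730 (0.680 to 0.784), and NSUN6 had a ratio of 1.50 (1.10 to 2.06), or 1.28 (0.942 to 1.76) after GC centring, which includes 1.

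Of 10 cytidine deaminase genes of the AID and APOBEC family 2 were measured, with a median of 0.19. APOBEC3B, a DNA mutator in tumours, was at 4.33 against 6.29 FPKM, with a ratio of 1.45 (1.16 to 1.83), and shares 18.4% of its exon bases with APOBEC3A. APOBEC3C had a ratio of 0.940 (0.816 to 1.08). Among markers of other cell types, 2 of 7 fibroblast genes were measured (COL1A1 at 13.5 and 11.3 FPKM, PDGFRB at 3.79 and 2.99), 1 of 6 immune genes (CD14 at 2.28 and 0.763) and 0 of 4 endothelial genes. The summed level of the fibroblast list was 17.4 and 14.4 FPKM, of the immune list 2.78 and 1.36, and of the endothelial list 0.482 and 0.405. Their part in the differences was not tested.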
